A study of Mus musculus with 5 samples.

Results

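Peritoneal cells of wild-type (WT) mice given the hydrocarbon oil pristane were compared with those of a WT mouse sample given phosphate-buffered saline (PBS), gene by gene. The comparison used 3 of the 5 libraries of the series: 1 WT PBS library and 2 WT pristane libraries, called WT pristane 1 and WT pristane 2. The mice were C57BL/6, wild type at Irf8 and 8 weeks old, and the cells were taken by washing out the peritoneal cavity. RNA from the lavage cells was sequenced with Smart-seq2, a method for small amounts of RNA. The other 2 libraries, from Irf8-deficient mice given pristane, entered only the estimate of spread between replicates and the filter on gene level described below. Neither the dose of pristane nor the time from injection to lavage stands in the labels. The labels do not say whether the 2 pristane libraries came from separate animals or from pools. Each p-value therefore reflects library-to-library spread. Sex-linked genes differed between these 2 libraries, as given below, and what part of the spread is technical was not tested. Genes were kept with at least 1 FPKM, a level scaled for transcript length and library depth, in at least 1 of the 5 libraries, 11117 of 22815 symbols listed, and 10792 of them reached that level in a WT library. Of the 11117 genes, 4150 lay above the PBS value in both pristane libraries (37.3%), 4952 lay below it in both (44.5%), and 2015 did neither.

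The resting peritoneal cavity holds large resident macrophages, which depend on the transcription factor Gata6, together with B cells, mast cells and a smaller set of monocyte-derived macrophages and dendritic cells. Pristane is a mineral oil component that cells cannot digest. In mice it sets up a lasting sterile inflammation in which neutrophils and Ly6C-high monocytes enter the cavity, resident macrophages disappear from the lavage, and type I interferon, made in response to nucleic acids of dying cells, acts on the incoming cells.

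The steps between the lowest values of the table gave an estimate of 2296000 fragments for PBS, 4070000 in WT pristane 1 and 2863000 in WT pristane 2. A single fragment on a transcript of 1 kb was therefore worth 0.435, 0.246 and 0.349 FPKM. Ribosomal protein genes made up 33.5% of all FPKM in the PBS library and 11.5% and 11.6% in the pristane libraries. Xist, the RNA that silences an X chromosome in females, stood at 43.5, 0 and 8.81 FPKM in WT PBS, WT pristane 1 and WT pristane 2, and the Y-linked Eif2s3y stood at 0, 12.9 and 0 FPKM. The 3 libraries thus differed in sex-linked genes, and the part of this in other results was not tested. In lavage cells measured as a whole, fewer cells of a type and less RNA per cell cannot be told apart. Throughout, the 3 values of a gene are its FPKM in WT PBS, WT pristane 1 and WT pristane 2, in that order. A log2 difference is the mean of the pristane libraries minus PBS on the log2(FPKM + 1) scale, which understates the change of low genes. Genes listed at 0 in a library may hold a failed estimate, and no fold is given against them.

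The pristane libraries differed more from the PBS library than from each other. Across the 11117 genes, the log2 levels of the pristane libraries correlated with each other at a Pearson r of 0.952, and with the PBS library at 0.823 for WT pristane 1 and 0.812 for WT pristane 2; genes are not independent replicates, so these values carry no test. The median gene differed by 0.33 (log2) between the pristane libraries and by 0.61 and 0.65 between each of them and PBS. A difference of 4-fold or more from PBS was seen for 854 genes in WT pristane 1 and 961 in WT pristane 2, whereas 92 genes were as much higher in WT pristane 1 than in WT pristane 2 and 55 as much lower. Both pristane libraries lay at least 4-fold above PBS for 337 genes (3.03%) and at least 4-fold below it for 255 genes (2.29%).

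Genes were tested with limma on all 5 libraries, and a gene passed with an adjusted p under 0.05 over the 11117 genes. By this rule 576 genes rose after pristane (5.18%) and 607 fell (5.46%). All 1183 lay on the same side of PBS in both pristane libraries, but the test allowed no other outcome. A gene with PBS between its pristane values has too wide a spread to pass, so this count is no measure of agreement. Of the genes at least 4-fold above PBS in both libraries 268 passed, and of those at least 4-fold below 198 passed. Since WT PBS had 1 library, the test took its spread to be that of the pristane pairs. With any 1 of the 4 pristane libraries left out, 0 genes passed limma's adjusted threshold, while between 2757 and 3749 genes had an unadjusted p under 0.05, compared with 3753 in the full fit. Of the genes that passed, 48.7% were higher. This share moved in both directions with the settings. It was 68.7% with a filter at a mean of 5 FPKM, 60.6% with a pseudocount of 0.1 and 55.3% with genes listed at 0 in a WT library left out. It was 38.6% with a pseudocount of 5 and 29.2% with no filter. With libraries scaled by median ratios the share was 34.6%, and with libraries scaled to the same sum without ribosomal genes it was 28.2%. These scalings moved the median of all genes from −0.07 to −0.27 and −0.38, so the list medians below are to be read against −0.07. List counts are to be read against 5.18% of all genes rising and 5.46% falling. Counts above or below PBS in both libraries are to be read against 37.3% and 44.5%. With scaling without ribosomal genes, 2928 genes lay above PBS in both libraries and 6447 below it.

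**Figure D1:**
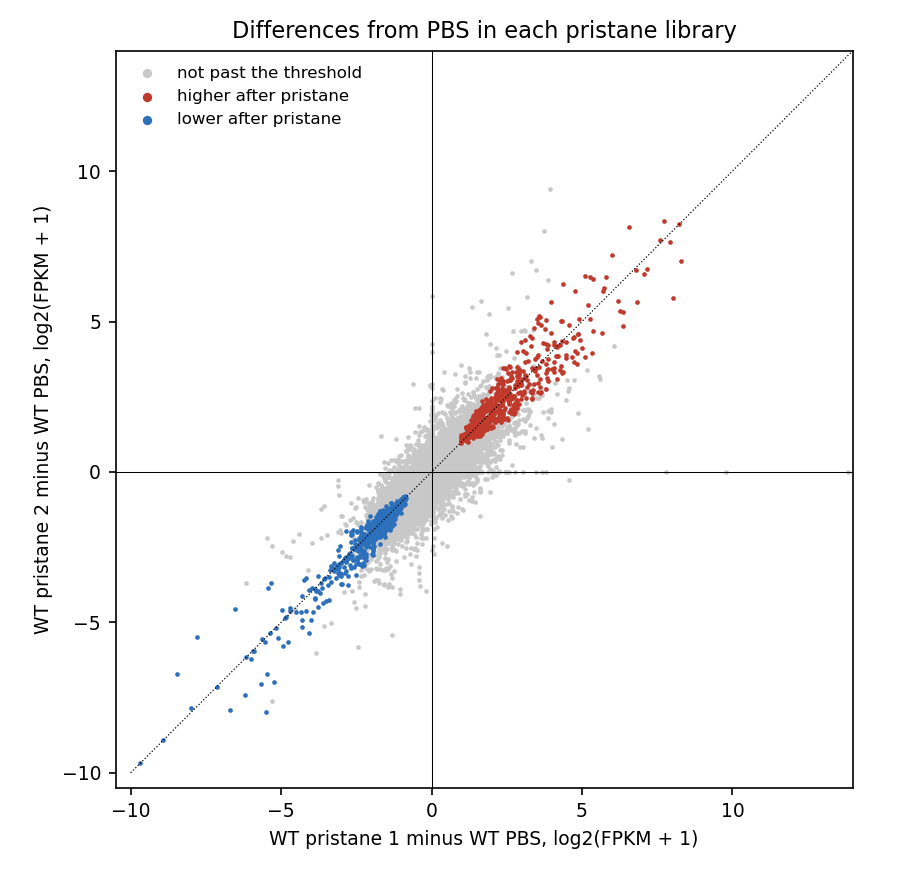
Difference from the PBS library in WT pristane 1 (x axis) and WT pristane 2 (y axis), both as log2(FPKM + 1), with 1 point per gene for the 11117 genes tested. Genes that passed limma's threshold are red (576 higher) or blue (607 lower). They lie near the dotted line of equal difference because the test passes only genes with a small spread between libraries.

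The genes farthest above PBS in both pristane libraries included Spp1, Il1r2, S100a8, Arg1, Rsad2 and Irf7. Genes were ranked by the smaller of their 2 differences from PBS among named genes with at least 10 FPKM in a WT library, and all of the first 30 passed limma's test. Spp1, which encodes the secreted matrix protein osteopontin, led them with 17.6, 5509 and 5626 FPKM, a log2 difference of 8.23 ± 0.23 (SE, limma adjusted p = 0.0135). Both pristane values were within a few percent of each other and about 317-fold above PBS. Il1r2, the decoy receptor that binds interleukin-1 without signalling, stood at 0, 212 and 321 FPKM and was listed at 0 in the PBS library. The neutrophil genes Stfa2l1, a stefin protease inhibitor, at 0, 191 and 207 FPKM, and Asprv1, an aspartic protease, at 0.652, 238 and 178 FPKM, followed a similar pattern. AA467197, which the table lists under a clone name, stood at 3.84, 1168 and 970.4 FPKM. S100a8 and S100a9, the subunits of calprotectin, are abundant proteins of neutrophils. S100a8 stood at 92.5, 10376 and 9877 FPKM (log2 difference 6.76 ± 0.47) and S100a9 at 38.7, 5295 and 3833 FPKM (6.83 ± 0.60).

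Arg1, the arginase that splits arginine to ornithine and urea, rose, at 58.7, 3858 and 8864 FPKM, a log2 difference of 6.61 ± 0.58 (limma adjusted p = 0.0257). Lcn2, the iron-scavenging protein lipocalin-2, stood at 9.03, 552 and 891 FPKM. Irg1, now named Acod1, makes the antimicrobial metabolite itaconate, and stood at 2.59, 941 and 195 FPKM, several times higher in WT pristane 1 than in WT pristane 2. The interferon-induced antiviral gene Rsad2 (viperin) stood at 1.47, 129.8 and 169 FPKM, and Irf7, the transcription factor that amplifies type I interferon, at 6.55, 393 and 482 FPKM. For both genes the pristane values lay close together and far from PBS, with standard errors of 0.26 and 0.28. The list also held Tgm2, a protein-crosslinking transglutaminase, at 10.4, 422 and 535 FPKM; Tnfsf9, the ligand of the co-stimulatory receptor 4-1BB, at 3.92, 374 and 199 FPKM; and Mefv, which encodes pyrin, at 0, 28.2 and 23 FPKM. Matrix genes were among the 30 as well: the collagen-degrading cathepsin Ctsk stood at 0, 37.6 and 87.3 FPKM, the elastase Mmp12 at 0.476, 34.4 and 43 FPKM and the protease inhibitor Timp1 at 0.706, 45.1 and 109 FPKM. Gpnmb, a glycoprotein of lipid-laden macrophages, stood at 1.24, 75.8 and 202 FPKM, and Smox, which oxidises spermine, at 1.08, 106 and 50.4 FPKM. Ifitm1, a membrane protein induced by interferon, was listed at 0, 312 and 129 FPKM.

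**Figure D2:**
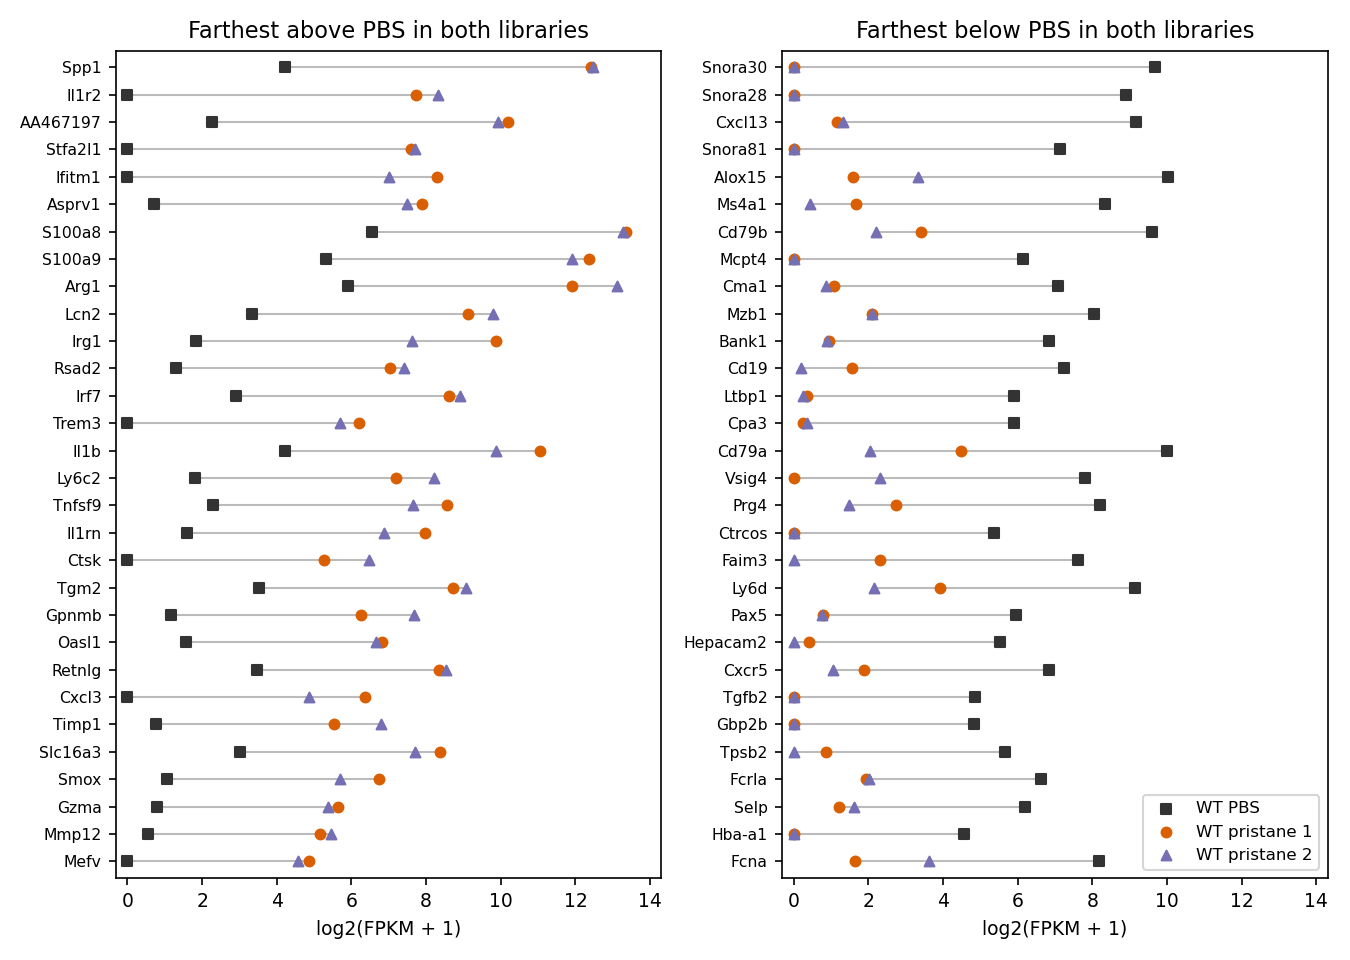
Levels of the 30 genes farthest above (left) and the 30 farthest below (right) PBS in both pristane libraries, as log2(FPKM + 1) on the x axis, ordered from the top by the smaller of the 2 differences. Squares mark WT PBS, circles WT pristane 1 and triangles WT pristane 2; the pristane symbols lie together for Spp1 and apart for Irg1, and all of the genes except Faim3 and Hba-a1 on the right passed limma's threshold.

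The genes farthest below PBS were small nucleolar RNAs, Cxcl13 and Alox15, followed by genes that include B cell, mast cell and resident macrophage markers. Among the 30 genes ranked lowest by the same rule, 28 passed. Cxcl13, the chemokine that draws B cells into the cavity, fell, at 572, 1.26 and 1.49 FPKM (log2 difference −7.92 ± 0.31, limma adjusted p = 0.016), and Cxcr5, its receptor, stood at 114, 2.73 and 1.08 FPKM. Alox15, the lipoxygenase of resident peritoneal macrophages, stood at 1046, 1.99 and 9.04 FPKM. Ltbp1 and Tgfb2, which encode a latency protein of TGF-beta and TGF-beta 2, stood at 59.2, 0.290 and 0.191 FPKM and at 28.2, 0 and 0 FPKM. Both are genes of the resident macrophages, and both were near or at 0 after pristane. Prg4, the lubricating proteoglycan lubricin, stood at 293, 5.65 and 1.79 FPKM, and Vsig4, a complement receptor of resident macrophages, at 221, 0 and 3.94 FPKM. Fcna, a ficolin that activates complement, stood at 288, 2.11 and 11.3 FPKM. Gbp2b, a guanylate-binding protein, stood at 27.6 FPKM after PBS and was listed at 0 in both pristane libraries. The small nucleolar RNAs Snora30, Snora28 and Snora81 were listed at 819, 481 and 139.6 FPKM after PBS and at 0 in both pristane libraries. Other small nucleolar RNAs were above 0 in WT pristane 1 alone of the WT libraries. Snora68 was listed at 0, 885 and 0 FPKM and Snora65 at 0, 220 and 0 FPKM. Whether such values reflect RNA levels was not tested. Faim3, the Fc receptor for IgM, stood at 194, 3.95 and 0 FPKM and did not pass (limma adjusted p = 0.0689), nor did the globin Hba-a1 at 22.5, 0 and 0 FPKM (0.0596).

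Marker genes of the resident cell types stood lower after pristane and those of neutrophils and monocytes higher. Of 23 markers of large peritoneal macrophages tested, 10 fell, 1 rose and 17 lay below PBS in both libraries, with a median log2 difference of −2.43 (−1.97 and −2.95 in the separate libraries). Timd4, a receptor for phosphatidylserine on dying cells, stood at 26.9, 0.676 and 0.838 FPKM, and Icam2, an adhesion molecule used to gate these cells, at 195, 27.3 and 13.4 FPKM. Gata6 itself stood at 6.13, 1.96 and 1.40 FPKM, below PBS in both libraries, and did not pass (limma adjusted p = 0.136). The member that rose was F10, coagulation factor X, at 29.9, 115 and 158 FPKM. Emr1, which encodes the macrophage antigen F4/80, stood at 266, 75.4 and 118 FPKM and did not pass. Among 21 B and plasma cell markers 13 fell and none rose, with a median of −4.47 (−4.02 and −4.66 in the separate libraries). Cd79a, a subunit of the B cell receptor, stood at 1028, 21.6 and 3.11 FPKM, and Ms4a1, which encodes CD20, at 325, 2.17 and 0.358 FPKM. Genes of plasma cells included 2 that did not pass: Igj, the joining chain of IgM and IgA, stood at 9.48, 7.86 and 8.03 FPKM, and Sdc1, also made by macrophages, at 2.00, 67.3 and 24 FPKM.

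Mast cell genes fell to or near 0. Of 12 tested, 10 fell, with a median of −1.52 (−1.46 and −1.52 in the separate libraries). The mast cell proteases Cma1, Mcpt4 and Tpsb2 stood at 134, 1.12 and 0.834 FPKM, 70.2, 0 and 0 FPKM and 49.2, 0.828 and 0 FPKM, and the carboxypeptidase Cpa3 at 58.5, 0.186 and 0.276 FPKM. The histamine-forming enzyme Hdc, which neutrophils also express, stood at 10.9, 186 and 50.2 FPKM, above PBS in both libraries, and did not pass. Of 6 platelet and red cell genes 5 lay below PBS in both libraries, 0 passed limma's threshold and 4 had an unadjusted p under 0.05: the platelet chemokine Pf4, which large peritoneal macrophages also make, stood at 1118, 34.6 and 177 FPKM, and the globin Hbb-b1 at 121, 0.696 and 8.40 FPKM.

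Neutrophil genes formed the group with the highest median. Of 21 markers of mature neutrophils 11 rose, 19 lay above PBS in both libraries, and the median log2 difference was 4.39 (4.37 and 3.94 in the separate libraries). Leaving out members listed at 0 in a WT library it was 4.13. The summed level of these genes was 1758, 19559 and 16574 FPKM. Most of the pristane sums came from S100a8, at 10376 and 9877 FPKM, and S100a9, at 5295 and 3833 FPKM. In both libraries 1 marker lay below PBS, and the lowest log2 difference of the list was −1.87. Cxcr2, the receptor for the neutrophil-attracting chemokines, stood at 1.44, 68.6 and 36.4 FPKM, and Mmp9, a gelatinase, at 4.66, 124 and 78 FPKM. Mxd1, a Myc antagonist of late neutrophil maturation, stood at 6.57, 262 and 106 FPKM, and Trem1, a receptor that amplifies inflammation, at 4.49, 145 and 121 FPKM. Csf3r, the receptor for the granulocyte growth factor G-CSF, stood at 10.6, 83.7 and 33.7 FPKM and did not pass. Among granule genes made by neutrophil precursors, of 15 tested only Lcn2 rose, against 5.18% of all genes. In both libraries 12 of the 15 lay above PBS and 3 below it. Their median was 2.01 (1.1 and 2.96 in the separate libraries), and 1.22 with genes listed at 0 left out. Mpo, myeloperoxidase of the early granules, stayed low at 0.176, 0.188 and 1.39 FPKM, and Elane, neutrophil elastase, stood at 0, 0.711 and 8.46 FPKM. Lyz2, the lysozyme shared by macrophages and neutrophils, stood at 6869, 5787 and 2226 FPKM.

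Among 18 inflammatory monocyte markers 3 rose and 13 lay above PBS in both libraries, with a median of 2.03 (2.01 and 1.97 in the separate libraries). Ly6c2, the surface antigen that defines these cells, stood at 2.51, 145 and 296 FPKM (limma adjusted p = 0.0296), and Fcgr1, the high-affinity IgG receptor, at 2.59, 73.1 and 271 FPKM. Ccr2, the receptor that brings monocytes out of the bone marrow, stood at 4.91, 27.1 and 85.5 FPKM, above PBS in both libraries, and did not pass (limma adjusted p = 0.082). Natural killer and innate lymphoid genes gave 3 rises among 16: the granzymes Gzma at 0.718, 49 and 40.5 FPKM and Gzmb at 0.360, 18.4 and 22 FPKM, and the receptor Ncr1 (NKp46) at 0.345, 6.99 and 4.38 FPKM. Of 17 T cell markers 0 passed limma's threshold and 4 had an unadjusted p under 0.05; Cd3e, part of the T cell receptor complex, stood at 25.5, 25.6 and 19.9 FPKM. Of 9 eosinophil markers 1 rose and 1 fell, against 5.18% and 5.46% of all genes. The one that fell was Il5ra, a receptor subunit also carried by peritoneal B-1 cells, at 16.2, 0.193 and 0.0957 FPKM. Among 20 small peritoneal macrophage and dendritic cell markers 1 rose and 2 fell, against 5.18% and 5.46% of all genes. In both libraries 10 lay above PBS and 6 below it. Irf4, a factor of both B cells and these macrophages, stood at 18.1, 1.62 and 0.850 FPKM. Of 14 mesothelial and fibroblast markers, all at low level, 10 were listed at 0 after PBS, 3 rose and 2 fell. The median was 1.24, and −2.25 with genes listed at 0 left out. Dcn, the matrix proteoglycan decorin, rose, at 0, 19.3 and 19.3 FPKM, as did mesothelin (Msln) and the collagen gene Col3a1, while the keratin Krt8 fell, at 6.10, 0.847 and 0.210 FPKM, with the endothelial and leukocyte adhesion molecule Pecam1, at 26.6, 3.91 and 2.86 FPKM.

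**Figure D3:**
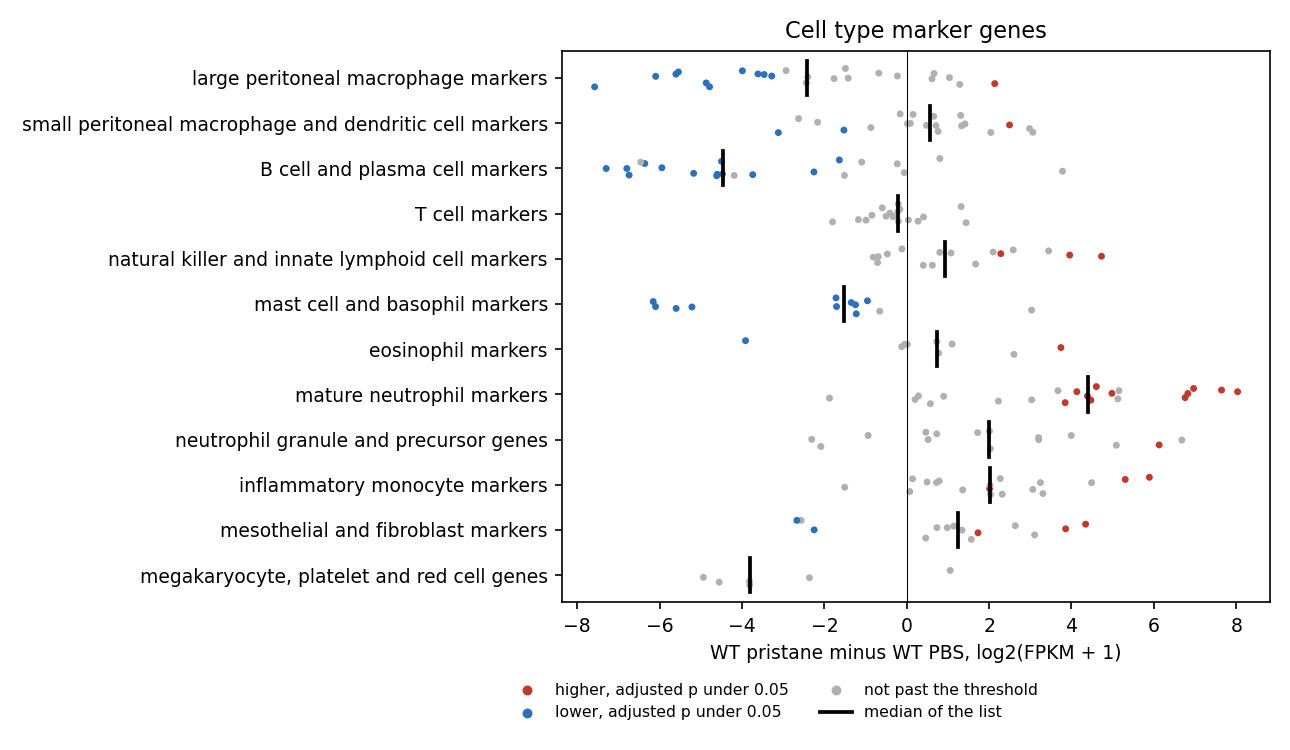
Log2 difference between WT pristane and WT PBS for every tested member of 12 lists of cell type markers, 1 point per gene, with the median of each list as a black bar. Large peritoneal macrophage, B cell and mast cell lists hold 10, 13 and 10 of the 38 blue points (genes that fell), and the mature neutrophil list holds 11 of the 24 red points (genes that rose).

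Some chemokines rose while those for B cells fell. Of 23 chemokine ligands tested, 3 rose, 2 fell and 18 lay above PBS in both libraries, with a median of 2.10 (1.63 and 2.11 in the separate libraries). The ligands that rose were Cxcl3 at 0, 81.6 and 28.1 FPKM, a neutrophil chemokine, Ccl8 at 2.18, 11.7 and 21 FPKM and Ccl9 at 61.2, 277 and 534 FPKM. Cxcl12, which retains cells in tissue niches, stood at 12.9, 1.21 and 1.40 FPKM and fell with Cxcl13. Cxcl2, a neutrophil chemokine, stood at 128, 1348 and 769.8 FPKM and Ccl4, a chemokine for monocytes and lymphocytes, at 116, 1109 and 752 FPKM; neither passed (limma adjusted p = 0.0583 and 0.0892). Among 26 chemoattractant receptors, 4 rose: Cxcr2, the formyl peptide receptor Fpr2 at 4.05, 73 and 53.7 FPKM, the complement C5a receptor C5ar1 at 69.9, 523 and 439.8 FPKM and the leukotriene B4 receptor Ltb4r1 at 3.32, 51.1 and 152 FPKM. The 4 that fell were Cxcr5, the chemokine scavenger Ackr2 at 3.04, 0 and 0 FPKM, and the lymphocyte positioning receptors Gpr183 at 22.4, 6.92 and 6.26 FPKM and S1pr4 at 27.4, 9.97 and 8.69 FPKM.

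Adhesion and growth factor receptor genes also differed by member. Itga5 and Itgb5, subunits of the fibronectin and vitronectin receptors, rose, at 3.48, 74.1 and 43.6 FPKM and 0.661, 19.3 and 10.7 FPKM. Cd44, the receptor for hyaluronan and osteopontin, stood at 51.6, 259 and 314 FPKM, 5.54-fold above PBS. Itga6, a laminin receptor subunit, fell, at 28.7, 3.17 and 2.06 FPKM, while Itgam (CD11b), carried by resident and incoming myeloid cells alike, stood at 131, 174 and 233 FPKM and did not pass. Genes of the GM-CSF receptor chains were higher: Csf2ra stood at 10.5, 98.4 and 107 FPKM, Csf2rb at 12, 42.2 and 44.8 FPKM and Csf2rb2 at 1.27, 19.2 and 15.2 FPKM, and all 3 rose with Csf1, the macrophage growth factor, at 0.812, 12 and 8.61 FPKM. The receptor for Csf1, Csf1r, stood at 86.8, 259 and 137 FPKM and did not pass.

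An interleukin-1 agonist and its inhibitors rose. Of 21 members tested 5 rose. Il1b, the main inflammatory agonist, stood at 17.7, 2118 and 939 FPKM (log2 difference 6.24 ± 0.71), and Il1rn, the receptor antagonist that blocks it, at 2.00, 248 and 117 FPKM (5.84 ± 0.63). With the decoy Il1r2, both natural inhibitors of interleukin-1 thus rose beside it. Il1rap, the shared receptor chain, stood at 3.85, 18.4 and 13.1 FPKM, and the signalling adaptor Myd88 at 25.1, 92.2 and 89.8 FPKM. Il1a stood at 6.66, 103 and 50.2 FPKM and did not pass. Il18 was nearly level at 25, 21.9 and 30.9 FPKM. Elsewhere among the cytokines, Il13ra1, a chain of the interleukin-4 and interleukin-13 receptor, rose, at 4.53, 37.6 and 53.9 FPKM, and Il10rb, a chain of the interleukin-10 receptor, stood at 46, 113 and 114 FPKM. Il6 stood at 18.1, 26 and 26.3 FPKM and Il10 at 20.5, 54.9 and 14.9 FPKM; neither passed. Tnf itself stood at 90.2, 737 and 671 FPKM with a limma adjusted p of 0.0532, while both of its receptors rose, Tnfrsf1a at 24.4, 75.3 and 78.4 FPKM and Tnfrsf1b at 14.9, 158 and 85.1 FPKM. Tnfrsf13c, the receptor for the B cell survival factor BAFF, fell, at 38.2, 1.19 and 0.589 FPKM. In the TGF-beta family Acvrl1, a type I receptor, rose, at 0.481, 13.8 and 8.59 FPKM, and Tgfb2 and Ltbp1 fell. Mature neutrophil markers (summed 1758, 19559 and 16574 FPKM) and monocyte markers (summed 1911, 4026 and 4607 FPKM) moved with these cytokine and receptor genes, and their part in these results was not tested.

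All 42 type I interferon response genes tested lay above PBS in both pristane libraries, and 30 of them rose, against 5.18% of all genes. Their median log2 difference was 2.63 (2.71 and 2.91 in the separate libraries), and 2.41 with libraries scaled by median ratios. Their summed level was 648, 6026 and 4319 FPKM. The RNA-binding effectors Ifit1, at 1.86, 50.1 and 49.8 FPKM, and Ifit3, at 0.234, 13.1 and 16.5 FPKM, rose with the ubiquitin-like protein Isg15 at 8.34, 129 and 176 FPKM. The 2 pristane values of each of these lay within 1.5-fold of each other. Among the synthetases of the RNase L pathway, Oas3 stood at 3.38, 96.8 and 86 FPKM and Oasl1 at 1.96, 112 and 99.1 FPKM. Usp18, the feedback inhibitor of the interferon receptor, stood at 1.63, 51.6 and 84.2 FPKM. Stat2, a subunit of the factor that drives these genes, rose, at 1.82, 10.1 and 10.4 FPKM, whereas Irf9, another subunit, stood at 16.9, 33.9 and 31.5 FPKM and did not pass. Eif2ak2, the RNA-sensing kinase PKR, was the member closest to PBS, at 3.51, 3.74 and 3.78 FPKM, and its difference of 0.08 turned to −0.12 with median scaling and −0.23 with scaling without ribosomal genes. Ifi27l2a, a small mitochondrial protein, had the highest level and stood at 349, 3336 and 1365 FPKM without passing (limma adjusted p = 0.0702). Mature neutrophil markers (summed 1758, 19559 and 16574 FPKM) and B cell markers (summed 3140.2, 249 and 190.2 FPKM) moved with this group, and their part in it was not tested. Ifit, Oas and Slfn genes have close relatives, among which fragments may be shared.

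Among 20 genes more closely tied to interferon gamma 1 rose, a share near the 5.18% of all genes. It was Ifi47, an immunity-related GTPase, at 17.4, 92.4 and 116 FPKM, and the median of the list was 0.44 (0.35 and 0.52 in the separate libraries). Gbp4 stood at 1.13, 1.00 and 0.670 FPKM and Gbp5 at 7.40, 4.94 and 4.13 FPKM, both guanylate-binding proteins and both below PBS in the pristane libraries. Ciita, which drives MHC class II genes, stood at 10.2, 5.84 and 0.674 FPKM, and Ido1 was listed at 0 in all 3 libraries. The lists share regulators, and the difference between them was not tested.

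Promoters of the interferon response genes were searched for the core of the interferon-stimulated response element, GAAA, any 2 bases and GAAA on either strand. The list holds known interferon response genes and was chosen with earlier results of these data known. Its share of matches is therefore a description only. In the 300 bases around the start site (250 before and 50 after, RefSeq, GRCm38.p6), 17 of 31 type I interferon genes with a promoter held a match, compared with 331 of 8433 tested genes (3.93%), 35 of 437 genes that rose (8.01%) and 22 of 446 that fell (4.93%). Of the 17 genes with a match 13 rose and 4 did not pass: Ddx58, Cxcl10, Slfn8 and Eif2ak2, the member closest to PBS. A match is shown for 8 of those that rose, in capitals, read 5′ to 3′ on the gene's strand with 20 bases on each side. A match describes these letters only. The windows lie at chr19:34640784-34640833 (Ifit1, plus strand), chr19:34583387-34583436 (Ifit3, plus), chr4:156200855-156200904 (Isg15, minus), chr12:26456543-26456592 (Rsad2, minus), chr5:120907510-120907559 (Oas1a, minus), chr5:120777705-120777754 (Oas3, minus), chr8:71537567-71537616 (Bst2, minus) and chr11:82951927-82951976 (Slfn5, plus).
Ifit1: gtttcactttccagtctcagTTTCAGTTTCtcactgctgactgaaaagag
Ifit3: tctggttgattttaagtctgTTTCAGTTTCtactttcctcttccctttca
Isg15: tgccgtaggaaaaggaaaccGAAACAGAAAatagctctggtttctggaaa
Rsad2: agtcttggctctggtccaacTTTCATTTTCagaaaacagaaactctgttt
Oas1a: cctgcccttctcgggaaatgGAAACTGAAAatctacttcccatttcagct
Oas3: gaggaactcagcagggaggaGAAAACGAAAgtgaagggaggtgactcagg
Bst2: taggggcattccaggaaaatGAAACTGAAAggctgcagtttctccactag
Slfn5: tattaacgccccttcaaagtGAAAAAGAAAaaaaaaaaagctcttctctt

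In Ifit1, Ifit3 and Rsad2 the match reads on the opposite strand, as TTTC followed by 2 bases and TTTC. Counted from the start site, its first base lay at position −85 in Ifit1, −122 in Ifit3, −66 in Isg15 and −14 in Oas1a. Isg15 held 3 matches, and Ifit1, Ifit3, Oas1a and Bst2 held 2 each. Bst2, the tethering protein tetherin that holds viruses on the cell, stood at 54.3, 378 and 256 FPKM, Oas1a at 3.01, 28.6 and 35.7 FPKM and Slfn5 at 5.79, 33.2 and 36.7 FPKM.

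Of 27 Toll-like and C-type lectin receptors 7 rose, 1 fell and 20 lay above PBS in both libraries, against 37.3% of all genes. Clec7a (dectin-1), which binds beta-glucan, stood at 21.7, 251 and 249 FPKM, and Clec4e (Mincle), which binds glycolipids and a protein of dead cells, at 34.8, 741 and 356 FPKM. Tlr2, the receptor for lipoproteins, rose, at 18.1, 236 and 120.2 FPKM, and Tlr13, a sensor of bacterial ribosomal RNA, at 17.7, 85.6 and 102 FPKM. The endosomal Tlr7, which senses single-stranded RNA, stood at 10.3, 12 and 15.8 FPKM, and Tlr9, which senses DNA, at 19.7, 7.66 and 6.48 FPKM; neither passed. Among paired receptors 13 of 44 rose and 37 lay above PBS in both libraries, against 37.3% of all genes. Their median was 1.48 (1.49 and 1.61 in the separate libraries). Trem2, a lipid-sensing receptor, stood at 11.3, 229 and 176 FPKM, the Fc receptor gamma chain Fcer1g, a signalling adaptor, at 362, 1925 and 1499 FPKM, the inhibitory Lilrb4 at 26.5, 206 and 269.7 FPKM and the sialic acid receptor Siglec1 at 2.90, 53.7 and 36.7 FPKM. The 3 that fell were the B cell lectins Cd22 at 34, 1.82 and 1.44 FPKM and Siglecg at 28.8, 1.83 and 0.574 FPKM, and Vsig4.

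Cytosolic sensors showed 6 rises among 29 and no fall. Trex1, the exonuclease that removes stray DNA, stood at 74.2, 529.7 and 362 FPKM (log2 difference 2.55 ± 0.42), and Samhd1, which lowers nucleotide pools, at 55.2, 129 and 132 FPKM. Gsdmd, the pore-forming gasdermin D, stood at 25.1, 77.9 and 64.9 FPKM, Mefv was listed at 0 after PBS and rose, and Nlrp3 stood at 12.9, 78.1 and 38.4 FPKM without passing. The DNA sensor Mb21d1 (cGAS) stayed low at 0.425, 0.791 and 1.18 FPKM, and its adaptor Tmem173 (STING) stood at 17.8, 19.9 and 23 FPKM. Fc receptors and complement went both ways, with 4 rises and 7 falls among 28. C3, the central complement component, rose, at 13.6, 83 and 47.6 FPKM. The complement gene C4b fell, at 80.9, 0.901 and 4.69 FPKM, the alternative pathway gene Cfp (properdin) stood at 908, 407 and 384 FPKM, and the decay-accelerating factor Cd55 at 42.3, 2.55 and 1.13 FPKM. Fcgr1 rose, Fcgr2b stood at 91.1, 138 and 244 FPKM and Fcgr3 at 137, 102 and 259.9 FPKM, and neither of the latter passed.

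Genes of lipid-laden macrophages and of the lysosome rose together. Of 24 lipid-associated macrophage genes 10 rose, with a median of 2.39 (2.54 and 2.22 in the separate libraries). Lgals3, the sugar-binding galectin-3, stood at 61.6, 970.1 and 1553 FPKM, Fabp5, a fatty acid carrier, at 37.8, 201 and 235 FPKM, and the tetraspanin Cd63 at 51.1, 338 and 286 FPKM. A second fatty acid carrier, Fabp4, went the other way and fell, at 105, 23.9 and 31.5 FPKM. Apoe, the abundant apolipoprotein of resident macrophages, stood at 6515, 3125 and 2566 FPKM, below PBS in both libraries, and did not pass (limma adjusted p = 0.357). Among 45 lysosome genes 14 rose, 1 fell and 39 lay above PBS in both libraries, with a median of 1.36 (1.28 and 1.28 in the separate libraries). Their summed level was 4660.4, 15885 and 16551 FPKM. Subunits of the proton pump that acidifies the lysosome rose by similar amounts: Atp6v0c stood at 149.7, 481 and 364 FPKM, Atp6v1b2 at 41.8, 111 and 148 FPKM, Atp6v1d at 19.9, 65.8 and 54.8 FPKM and Atp6v1e1 at 87.9, 281 and 246 FPKM. Atp6v0d2, the subunit typical of osteoclasts and some macrophages, stood at 0, 10.9 and 35.5 FPKM. The cathepsins Ctsb and Ctss stood at 189.9, 874 and 1155 FPKM and 757, 3791 and 3909.7 FPKM, and both rose, whereas Ctsf fell, at 12.1, 0.253 and 0.376 FPKM. The transcription factors known to drive lysosome genes stood at 3.51, 5.88 and 4.45 FPKM (Tfeb), 2.74, 11.4 and 7.37 FPKM (Mitf) and 3.98, 12.6 and 13.3 FPKM (Tfe3), and none of them passed. The same neutrophil and B cell marker sums, 1758, 19559 and 16574 FPKM and 3140.2, 249 and 190.2 FPKM, moved with the lysosome genes, and their part was not tested.

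Sterol and fatty acid genes moved in both directions. In the list of 30 synthesis genes 8 rose and 3 fell. Rises covered several steps from acetyl units to cholesterol: Hmgcs1 at 4.04, 12.4 and 12 FPKM, Fdps at 7.43, 54.8 and 35.4 FPKM, Sqle at 1.45, 9.79 and 12.3 FPKM and Msmo1 at 3.40, 40.1 and 32.3 FPKM. Scd1, a desaturase of saturated fatty acids, fell, at 68.3, 2.53 and 0.958 FPKM (39.2-fold lower), while the related Scd2 rose, at 2.89, 12.6 and 16 FPKM. Elovl5, an elongase of fatty acids, fell, at 42.4, 19.2 and 19.5 FPKM. On the side of storage and efflux Nr1h3 (the sterol-sensing receptor LXR-alpha) stood at 1.06, 35.8 and 16.6 FPKM, Pparg at 0, 5.86 and 5.88 FPKM and the triglyceride-forming Dgat2 at 2.44, 24.8 and 25.7 FPKM, and all 3 rose. Abca1, a sterol exporter and a target of Nr1h3, stood at 14.1, 26.2 and 14.5 FPKM and did not pass.

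Glycolysis genes rose at many steps from glucose entry to lactate export. Of 33 tested 15 rose, none fell and 28 lay above PBS in both libraries, with a median of 1.62 (1.95 and 1.32 in the separate libraries). The glucose transporter Slc2a1 stood at 7.31, 48 and 57.7 FPKM, and Slc16a3, which exports lactate, at 7.04, 329 and 208 FPKM. Between them Aldoa stood at 142, 893 and 609 FPKM, Tpi1 at 133, 844 and 745 FPKM, Pgk1 at 74.3, 548 and 539 FPKM, Pgam1 at 69.2, 613 and 643 FPKM, Pkm at 169.6, 980.4 and 1388 FPKM and Ldha at 184, 1086 and 1047 FPKM. Pgam1 rose most of these 6 enzymes, by 3.16 ± 0.19, and Aldoa least, by 2.37 ± 0.31. In the pentose phosphate branch Pgd rose, at 36.3, 254 and 182 FPKM, with G6pdx at 17.4, 37.8 and 42.7 FPKM and Tkt at 46.6, 113 and 126 FPKM. Neutrophil markers (summed 1758, 19559 and 16574 FPKM) and B cell markers (summed 3140.2, 249 and 190.2 FPKM) moved with the glycolysis genes too, and their part was not tested. Gapdh and some other members have many processed copies in the genome, which may take part of their fragments. The hypoxia list overlapped in part: 8 of 26 rose, including Hif1a at 25.6, 93.1 and 77.9 FPKM, the mitophagy gene Bnip3 at 8.50, 110.4 and 138 FPKM, the oxygen sensor Egln3 at 7.99, 32.1 and 30.8 FPKM and the collagen hydroxylase P4ha1 at 8.40, 61.2 and 34.8 FPKM. Adm (adrenomedullin) fell, at 7.82, 0.794 and 0 FPKM, and Vegfa was listed at 0 after PBS and at 3.30 and 1.39 FPKM after pristane without passing. Genes of the tricarboxylic acid cycle and fatty acid oxidation were nearly level, with 0 of 32 past limma's threshold, 4 at an unadjusted p under 0.05 and a median of −0.01 (−0.10 and 0.03 in the separate libraries). Respiratory chain subunits had a median of 0.11 and 1 rise among 49, Cox7c at 3.14, 28.8 and 33 FPKM.

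Promoters of the glycolysis and hypoxia genes were searched for the core of the hypoxia response element, ACGTG on either strand, in the same 300-base windows. A match was present in 17 of 32 glycolysis and pentose phosphate genes, in 18 of 22 hypoxia response genes and in 2525 of 8433 tested genes (29.9%), and in 131 of the 437 genes that rose (30%). Of the 17 matched glycolysis and pentose phosphate genes 9 rose and 8 did not pass. Of the 18 matched hypoxia response genes 6 rose and 12 did not pass. So short a core is common, and its share among all genes that rose equalled that of the whole set. Windows with 20 bases on each side of a match are given for 6 genes that rose, at chr4:119108689-119108733 (Slc2a1, plus strand), chrX:106186949-106186993 (Pgk1, plus), chr7:46845750-46845794 (Ldha, plus), chr19:41911737-41911781 (Pgam1, plus), chr11:120949033-120949077 (Slc16a3, plus) and chr7:138909589-138909633 (Bnip3, minus). The capitals mark the match, on the gene's strand in Slc2a1, Pgam1, Slc16a3 and Bnip3 and on the opposite strand in Pgk1 and Ldha.
Slc2a1: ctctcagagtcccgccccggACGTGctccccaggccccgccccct
Pgk1: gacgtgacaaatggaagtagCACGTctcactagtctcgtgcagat
Ldha: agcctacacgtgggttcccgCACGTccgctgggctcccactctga
Pgam1: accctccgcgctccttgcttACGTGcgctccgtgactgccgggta
Slc16a3: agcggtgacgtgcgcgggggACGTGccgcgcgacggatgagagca
Bnip3: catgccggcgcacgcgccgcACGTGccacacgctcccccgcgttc

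Ldha held 5 matches in its window of 300 bases, and Pgk1, Slc16a3 and Bnip3 held 2 each. For comparison, the core of the GATA element, AGATAA on either strand, was present in 683 of 8433 tested genes (8.1%), in 58 of the 446 genes that fell (13%), in 37 of the 437 that rose (8.47%), in 3 of 16 large peritoneal macrophage markers (18.8%) and in 6 of 31 type I interferon genes (19.4%).

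Arginine, polyamine and itaconate genes held some of the strongest rises, but their list went both ways. Of 21 arginine, itaconate and tryptophan genes tested 6 rose, 11 lay above PBS in both libraries and 8 below it. The median was 0.52 (0.49 and 0.43 in the separate libraries). Besides Arg1 and Irg1, the mitochondrial arginase Arg2 rose, at 0.360, 35.1 and 16 FPKM, and the arginine transporter Slc7a2 stood at 4.59, 31.4 and 53.5 FPKM. Sat1, which acetylates polyamines for export, stood at 182, 765 and 689.7 FPKM. Nos2, the inducible nitric oxide synthase that competes for arginine, was listed at 0 after PBS and reached only 3.57 and 13.7 FPKM. In the eicosanoid list 4 of 27 rose and 2 fell. In the leukotriene branch Alox5ap, the helper of 5-lipoxygenase, rose, at 432, 1145 and 1299 FPKM, as did the receptor gene Ltb4r1. Ptgis, which makes prostacyclin, fell, at 99.9, 15.7 and 12.2 FPKM together with Alox15. Ptgs2, the inducible cyclooxygenase, stood at 1.94, 43.6 and 22.7 FPKM and did not pass. Antioxidant genes gave 4 rises among 33, against 5.18% of all genes. Among them were Hmox1, which breaks down heme, at 22.9, 129 and 157 FPKM and Gsr, which regenerates glutathione, at 14.7, 69.3 and 63.3 FPKM. In iron handling Hp, the hemoglobin-binding haptoglobin, rose, at 39, 1278 and 687 FPKM, and Trf, the iron carrier transferrin, fell, at 1198, 60.2 and 67.6 FPKM (18.7-fold lower). The pristane values of Trf lay close together and far below PBS.

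Of 18 calcium-binding proteins of the S100 and annexin families 6 rose and 2 fell. Those that fell were S100a5, at 10.6, 0 and 0 FPKM, and S100g, at 2.59, 0 and 0 FPKM, and those that rose were S100a8, S100a9 and 4 annexins. Anxa2, a membrane-binding annexin, stood at 181, 2637 and 3405 FPKM, 16.7-fold above PBS, Anxa5, which binds phosphatidylserine, at 69.9, 558 and 554 FPKM, and Anxa1, a mediator of resolution, at 84.2, 519 and 709 FPKM. Matrix proteases and inhibitors gave 11 rises among 29. Adam8, a shedding protease of leukocytes, stood at 11.1, 138 and 369 FPKM, and Cstb, a cathepsin inhibitor, at 71.5, 1054 and 981 FPKM. Timp2 fell, at 40.2, 11.5 and 11.1 FPKM, while Timp1 rose. In the coagulation list F7 and F10, clotting factors made by macrophages, rose. They stood at 17.6, 75.1 and 84.6 FPKM and 29.9, 115 and 158 FPKM. By contrast F5, a clotting cofactor, fell, at 51.8, 3.93 and 3.66 FPKM. Plau and Plaur, urokinase and its receptor, rose together, at 4.07, 26.5 and 29.6 FPKM and 84.1, 356 and 369.8 FPKM. Phagocyte oxidase subunits were uneven: Ncf4 rose, at 60.2, 206 and 183 FPKM, and the catalytic subunit Cybb stood at 143, 179 and 105 FPKM, with PBS between the pristane values. Actin genes lay above PBS in 30 of 34 cases, against 37.3% of all genes. Of these genes 9 rose, such as the filament-severing Gsn at 7.05, 136 and 150.3 FPKM and Arpc1b of the branching complex at 309.8, 855 and 843 FPKM.

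**Figure D4:**
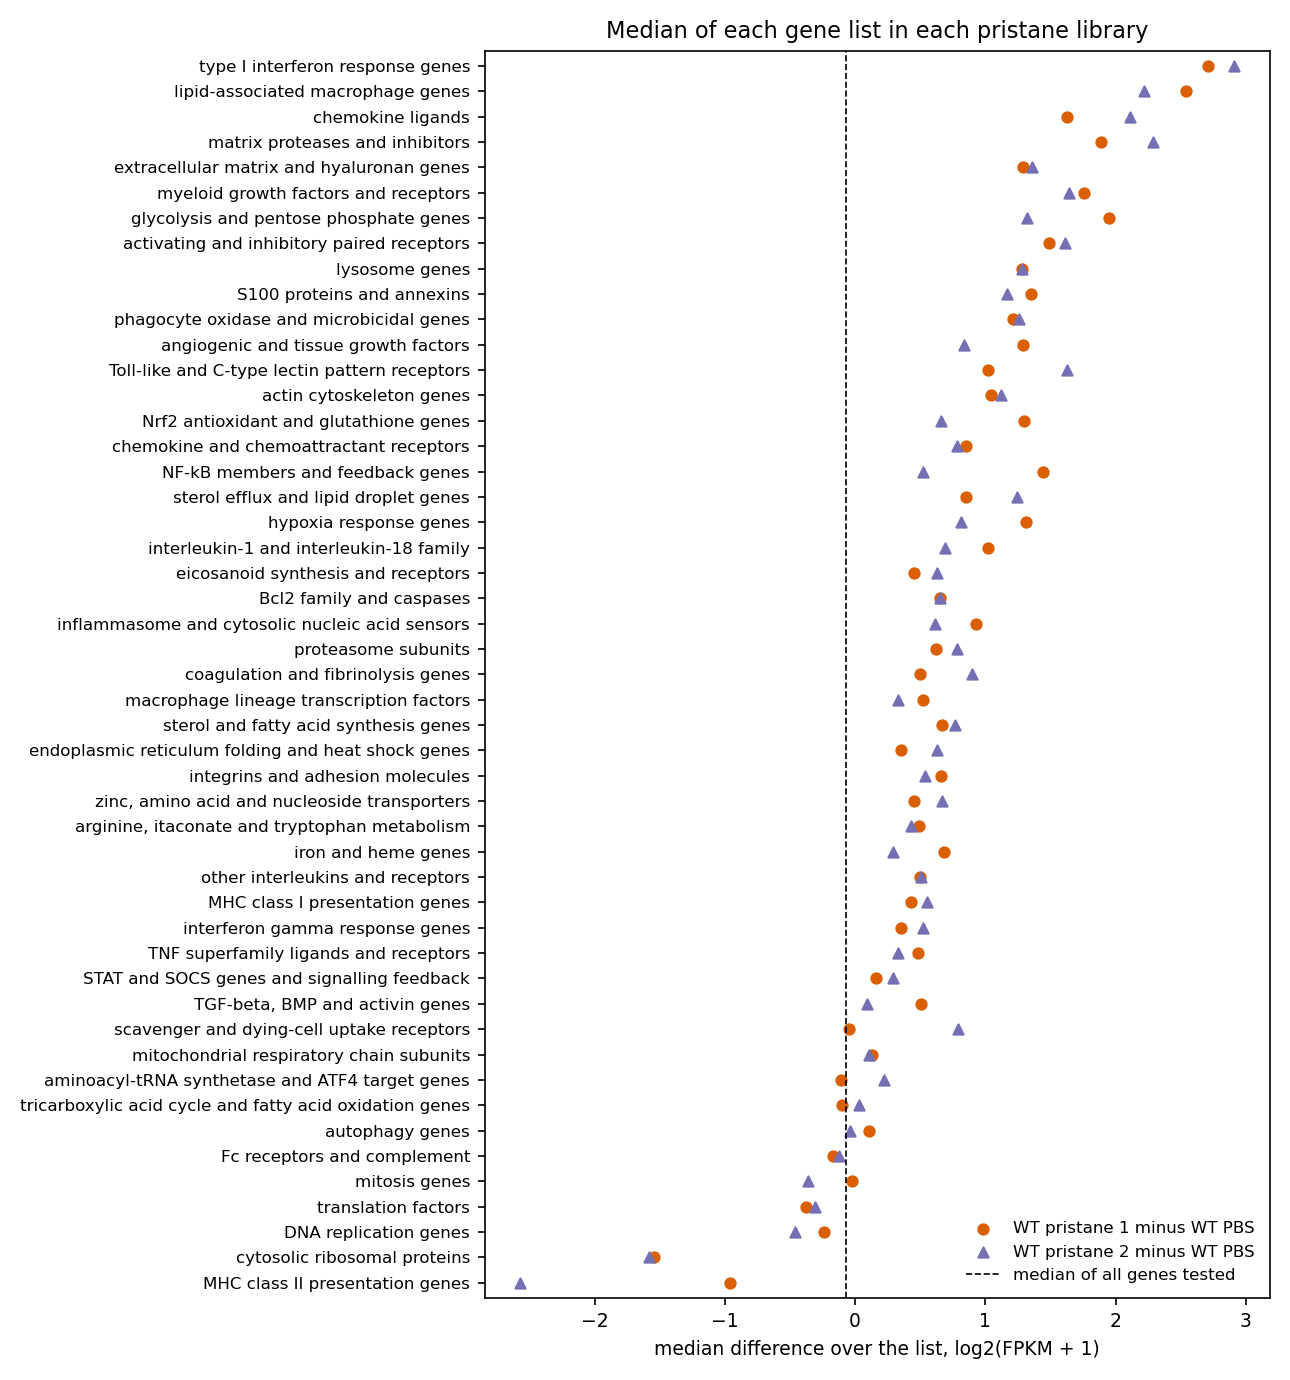
Median difference from PBS (x axis, log2(FPKM + 1)) of the 49 gene lists other than cell type markers, in WT pristane 1 (circles) and WT pristane 2 (triangles), ordered by the median of the mean difference. The dashed line is the median of all genes tested, −0.07; type I interferon response genes stand highest at 2.71 and 2.91, and MHC class II genes differ most between the libraries, at −0.96 and −2.57.

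Of 51 transcription factors of the macrophage lineage 8 rose and 2 fell, while 27 lay above PBS in both libraries and 15 below it. Spi1 (PU.1), the factor common to macrophages and neutrophils, stood at 63.6, 339 and 216 FPKM, Bhlhe40 at 64.5, 324 and 206 FPKM, Egr2 at 3.26, 24.6 and 28.2 FPKM and Id2 at 84.4, 227 and 278 FPKM, and all of these rose. Irf8 stood at 32.4, 63.3 and 48.7 FPKM, above PBS in both libraries, and did not pass (log2 difference 0.76 ± 0.50, limma adjusted p = 0.344). Myc, which drives growth, stood at 50.4, 5.23 and 12.6 FPKM and did not pass either. Of 30 NF-kB members and feedback genes 3 rose, against 5.18% of all genes. They were the inhibitory Tnfaip3 (A20) at 43.8, 215 and 205 FPKM and Tnip3 at 0.227, 16.6 and 11.9 FPKM, and the kinase Ikbke at 6.52, 34.3 and 25.1 FPKM. The subunits themselves stood near PBS, with Nfkb1 at 16.8, 19.4 and 10.2 FPKM and Rel at 30.8, 41 and 22.5 FPKM, PBS lying between the pristane values of both. The list's median was 1.01 (1.44 and 0.52 in the separate libraries). Among Bcl2 family genes Bcl2l1, the survival protein Bcl-xL, rose, at 3.23, 24.6 and 46.2 FPKM, as did the death effectors Bax at 46, 107 and 101 FPKM and Bak1 at 5.37, 19.7 and 21.1 FPKM.

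Ribosomal protein genes were lower without exception. All 78 tested lay below PBS in both pristane libraries and 38 fell, against 5.46% of all genes, with a median of −1.55 (−1.54 and −1.58 in the separate libraries). Log2 differences ran from −2.42 for Rpl26, at 421, 57.5 and 106 FPKM, to −0.81 for Rpl7a, at 877, 481 and 519 FPKM. Rps27 stood at 6810.0, 1599 and 1494 FPKM. B cell genes, which fell with the ribosomal protein genes, were not separated from this result. B cell markers summed to 3140.2, 249 and 190.2 FPKM and their part in it was not tested. Elongation factors followed, with Eef1b2 at 566, 184 and 154 FPKM and Eef1g at 579, 227 and 213 FPKM lower, while Eif4ebp1, an inhibitor of cap-dependent translation, rose, at 44, 127 and 170.4 FPKM. DNA replication genes had a median of −0.37 (−0.24 and −0.46 in the separate libraries) with 0 rises and 1 fall among 38, Rpa1 at 21.6, 7.42 and 7.62 FPKM. Of 37 mitosis genes 0 passed limma's threshold and 4 had an unadjusted p under 0.05, and the proliferation marker Mki67 stayed low at 0.840, 0.447 and 0.569 FPKM. Proteasome subunits lay above PBS in 34 of 37 cases by a small amount, against 37.3% of all genes. They had a median of 0.72 and 3 rises, among them Psmd8 at 69.5, 185 and 259.9 FPKM.

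Of 16 MHC class II presentation genes 0 passed limma's threshold as lower and 2 rose, and 7 had an unadjusted p under 0.05 in either direction. Cd74, the invariant chain, stood at 4799, 1790.0 and 360.1 FPKM, and H2-Aa at 2765, 1069 and 313 FPKM; neither passed (limma adjusted p = 0.193 and 0.165). The accessory H2-Ob, typical of B cells, stood at 140.1, 8.79 and 1.19 FPKM and did not pass. In both libraries 11 members lay below PBS and 3 above it, and the 2 that rose were Ctss and Ifi30, at 184, 599 and 470.4 FPKM, which act in antigen processing in the lysosome. Of 17 MHC class I presentation genes 12 lay above PBS in both libraries, against 37.3% of all genes, with a median of 0.45. H2-Q6, which has near-identical relatives, was the 1 that rose, at 0.588, 11 and 13.9 FPKM. B2m stood at 3313, 5155 and 3985 FPKM and H2-K1 at 539.7, 714 and 421 FPKM.

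The pristane libraries differed from each other in a limited set of genes, 92 of them at least 4-fold higher in WT pristane 1 and 55 in WT pristane 2. Genes higher in WT pristane 2 included monocyte chemokines, stefins and granule proteins. Chil3, a chitinase-like protein of macrophages and neutrophil precursors, stood at 4.85, 88.9 and 3999.8 FPKM, and the monocyte attractants Ccl2, Ccl7 and Ccl12 at 65.4, 247 and 2519 FPKM, 19.3, 50.3 and 898 FPKM and 1.92, 17.6 and 284 FPKM. All 4 lay above PBS in both libraries, yet none passed, with limma adjusted p-values of 0.148, 0.183, 0.265 and 0.173. The stefins Stfa1 and Stfa3 stood at 0, 2.13 and 50.9 FPKM and 0, 8.93 and 127 FPKM, and the granule proteins Ngp and Ltf at 0.472, 15.3 and 153 FPKM and 0, 4.82 and 42.6 FPKM. Mrc1, the mannose receptor, stood at 3.99, 3.82 and 35.6 FPKM, near PBS in one library and 2.92 (log2) higher in the other. Stefin genes resemble each other closely, so fragments may be shared among them.

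Genes higher in WT pristane 1 included Cx3cr1, the fractalkine receptor of Ly6C-low monocytes, at 1.48, 89.3 and 5.68 FPKM, and the growth factor Pdgfb at 0.149, 17.6 and 1.06 FPKM. The scavenger receptor Marco stood at 107, 18.7 and 0.934 FPKM, below PBS in both libraries but by different amounts. Rn45s, the precursor of ribosomal RNA, was listed at 14587 FPKM in WT pristane 1 and at 0 in the other WT libraries. The Y-linked Eif2s3y was in this set, and Xist was among the genes higher in WT pristane 2. Amd1 and Amd2, near-identical copies of 1 gene, took opposite values: Amd1 stood at 14.2, 10.7 and 0.110 FPKM and Amd2 at 0.0020, 0.0074 and 14.9 FPKM.

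**Figure D5:**
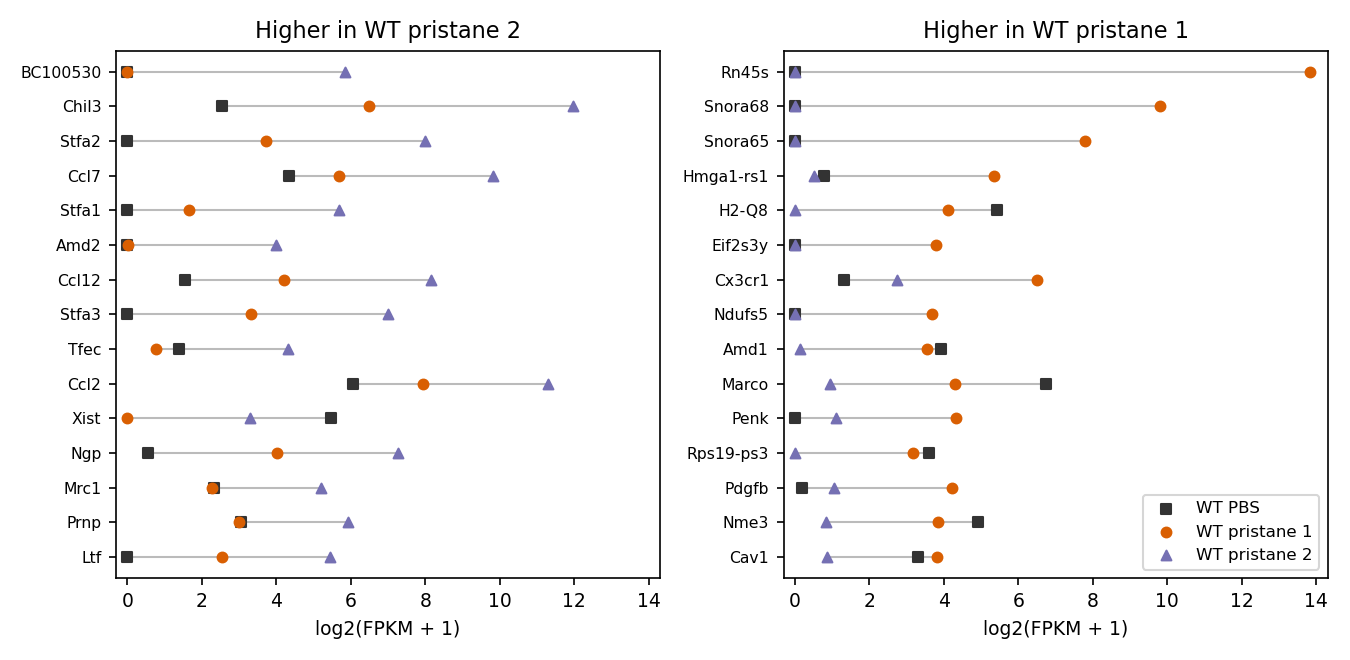
Levels of the 15 genes with the largest excess in WT pristane 2 over WT pristane 1 (left) and the 15 with the reverse (right), as log2(FPKM + 1). Chil3, Ccl2, Ccl7 and Ccl12 on the left show both pristane symbols right of the PBS square, and Rn45s on the right has a value above 0 in WT pristane 1 only.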

How the data were processed

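The deposited values were FPKM, although the authors' table is called a count table: they were not whole numbers, and length-corrected low values fell into steps (74.8% to 82.1% of those in the WT libraries lay within 0.15 of a whole fragment). BWA, TopHat2 2.0.10, Cufflinks 2.2.1 and Cuffnorm are named in the submitters' processing notes, with no role stated. Genome build, annotation and any scaling between libraries were each not given in the sources used here. Of 22815 symbols, 27 had become dates and were not named. Genes with at least 1 FPKM in 1 library were tested on log2(FPKM + 1) with limma 3.58.1 (limma-trend, R 4.3.3) in a single fit of 3 group means over 5 libraries, with 2 residual and 1.99 prior degrees of freedom. P-values were 2-sided and adjusted over 11117 genes by the Benjamini-Hochberg method.

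The 61 gene lists held 1795 entries, of which 1788 were in the table, 14 under an older symbol. Genes were named from these lists, from the 30 farthest from PBS in each direction by the smaller of their library differences with at least 10 FPKM in a WT library, and from the 15 most different between the pristane libraries in each direction. Predicted genes, receptor segments and clone names were otherwise not named. The comparison, the lists and the rule were chosen with earlier results of these data known. Alternatives covered the pseudocount, filters, scalings, the fit and leaving out libraries; scaling without ribosomal genes was added after seeing the data. Some genes are not reported here.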

Additional observations from a re-analysis of the deposited data

How the results depend on the processing

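No paired analysis was possible because WT PBS is a single library whose label carries no replicate number. The main counts were 576 higher, 607 lower, 4150 above and 4952 below PBS. Genes that rose numbered 372 with no filter on low values and 950 with genes listed at 0 in a WT library left out. Genes that fell numbered 333 with a pseudocount of 0.1, 368 with a filter at a mean of 5 FPKM, 929 with median scaling and 1212 with scaling to the same sum without ribosomal genes, which was chosen after seeing the data. The filter at a mean of 5 FPKM tested 5894 genes, of which 2841 lay above PBS in both libraries and 2044 below it. The balance thus turned toward higher genes. With this filter 808 genes rose, 68.7% of the genes that passed, and the median of all genes was 0.138. With the 3 WT libraries alone limma called 0 genes higher and 0 lower, and 2757 had an unadjusted p under 0.05. Leaving out any 1 pristane library gave 0 calls in each direction. The cause of these shifts was not tested, except that fewer libraries leave fewer degrees of freedom. Under both scalings the medians of 4 lists changed sign, and 0 lists changed their side of the median of all genes. These were STAT and SOCS genes, aminoacyl-tRNA synthetase genes, respiratory chain subunits and scavenger receptors. Values near 1 fragment, 0.246 to 0.435 FPKM for 1 kb, set the depth limit for low genes. With median scaling the log2 difference changed sign for Eif2ak2 (−0.12), Fcgr3 (−0.01), H2-K1 (−0.22), Il18 (−0.18). With quantile normalization the log2 difference changed sign for Fcgr3 (−0.28), Gbp4 (0.06), H2-K1 (−0.19), Il18 (−0.19). With scaling without ribosomal genes the log2 difference changed sign for Eif2ak2 (−0.23), Fcgr3 (−0.14), H2-K1 (−0.36), Il18 (−0.31), Tmem173 (−0.11). Leaving out 1 library gave log2 differences of −0.34 to 0.01 for Cd3e, −0.44 to 0.33 for Cybb, −0.43 to 0.91 for Fcgr3, −0.36 to 0.40 for H2-K1, −0.43 to 1.38 for Il10, −0.18 to 0.30 for Il18, −0.05 to 2.88 for Mrc1, −0.67 to 0.20 for Nfkb1, −0.44 to 0.40 for Rel. None of these genes passed limma's threshold in the full fit.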
